A study of Mus musculus with 6 samples.

Results

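The H3K27me3 peaks described here lay on the autosomes of mouse colonic organoids, with their nearest edge at least 50000 bp from every annotated transcript start. They numbered 2332 of the 30594 H3K27me3 peaks in wt organoids and 5108 of the 60540 in wt+TNFα organoids, and are called far peaks below. The other autosomal peaks, 28015 and 43854, are called near peaks. The rule used positions alone and no measured strength.

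The organoids were C57BL/6 wild-type colonic epithelial cells, grown without TNFα (wt) or with TNFα at 40 ng/ml for 3 weeks (wt+TNFα). Chromatin was immunoprecipitated for H3K27me3 or H3K4me3, with 1 library per condition and mark, so no difference between the conditions has a replicate check and none was tested. The planned depth was 60 M reads for each H3K27me3 library, and the study's reporting summary gives near-equal read totals for both, but fewer reads for the wt input than for the wt+TNFα input, against which peaks were called. The promoters of 10 of 10 epithelial marker genes carried an H3K4me3 peak in both conditions, against 0 of 6 leukocyte, 0 of 4 endothelial, 0 of 8 mesenchymal and 0 of 6 neuronal marker genes. The name of the wt H3K27me3 list mentions a spike-in and that of the wt+TNFα list does not. The sample titles name no donor animal or organoid line. TNFα, organoid line, library and processing therefore cannot be told apart in any comparison of the conditions.

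H3K27me3, trimethylation of lysine 27 on histone H3, is placed by Polycomb repressive complex 2 and marks silenced developmental genes. The complex is recruited in mammals largely through CpG islands, and the mark then spreads over neighbouring chromatin. Most descriptions of the mark concern promoters, whereas the peaks treated here sit in the bodies of long genes and in the deserts between genes.

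The sequences below come from selected far peaks and are not typical of all, since 4 of the 6 hold more than 20 CpGs whereas 90.5% of wt far peaks held fewer than 10 CpGs in their CpG-richest 200 bp. Each is that 200-bp stretch of a far peak, on the plus strand of GRCm38, with each CpG in capitals. The first 5 come from the far peaks with the highest wt fold enrichment among those overlapped by a wt+TNFα peak, chosen separately in gene bodies and outside genes. The first lies in an 842-bp exon of Rims1, a scaffold protein of synaptic vesicle release, and the second in an intron of Lmx1a, a LIM homeobox transcription factor. The next 3 lie outside genes. The last comes from the widest wt+TNFα far peak with no wt peak.
Rims1 exon chr1:22533681-22533880: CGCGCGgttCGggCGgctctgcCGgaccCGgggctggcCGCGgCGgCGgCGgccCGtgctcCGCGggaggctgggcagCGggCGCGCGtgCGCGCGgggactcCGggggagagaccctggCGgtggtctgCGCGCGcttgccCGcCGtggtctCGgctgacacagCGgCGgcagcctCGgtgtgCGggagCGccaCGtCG
Lmx1a intron chr1:167803068-167803267: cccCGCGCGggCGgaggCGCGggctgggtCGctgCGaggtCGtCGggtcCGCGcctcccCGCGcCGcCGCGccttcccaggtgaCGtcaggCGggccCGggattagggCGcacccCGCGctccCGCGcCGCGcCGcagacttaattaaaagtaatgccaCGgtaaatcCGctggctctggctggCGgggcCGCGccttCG
Brd7 to Nkd1 chr8:88454095-88454294: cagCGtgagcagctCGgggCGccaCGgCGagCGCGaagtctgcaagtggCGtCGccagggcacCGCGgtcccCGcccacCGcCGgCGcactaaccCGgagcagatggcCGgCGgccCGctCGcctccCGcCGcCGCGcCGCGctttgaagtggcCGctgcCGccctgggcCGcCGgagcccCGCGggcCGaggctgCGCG
Gm9376 to Abcc4 chr14:118436953-118437152: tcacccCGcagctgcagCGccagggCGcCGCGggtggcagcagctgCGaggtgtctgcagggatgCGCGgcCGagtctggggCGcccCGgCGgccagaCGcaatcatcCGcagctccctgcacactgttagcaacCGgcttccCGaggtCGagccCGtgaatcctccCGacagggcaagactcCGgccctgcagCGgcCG
Npvf to Nfe2l3 chr6:51180213-51180412: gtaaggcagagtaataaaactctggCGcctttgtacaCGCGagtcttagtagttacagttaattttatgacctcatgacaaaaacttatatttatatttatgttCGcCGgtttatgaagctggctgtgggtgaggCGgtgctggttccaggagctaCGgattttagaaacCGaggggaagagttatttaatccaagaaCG
4930564D02Rik to Kcnd3, wt+TNFα alone chr3:105136473-105136672: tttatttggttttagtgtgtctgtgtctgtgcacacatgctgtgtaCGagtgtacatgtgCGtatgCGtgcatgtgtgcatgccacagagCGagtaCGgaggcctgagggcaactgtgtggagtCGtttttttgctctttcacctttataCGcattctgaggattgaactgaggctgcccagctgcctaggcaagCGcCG
The Rims1 sequence holds 37 CpGs, the Brd7 to Nkd1 sequence 35, the Lmx1a sequence 34 and the Gm9376 to Abcc4 sequence 22. The richest window of the Npvf to Nfe2l3 peak, the peak with the highest fold enrichment in both conditions, held 9 CpGs, and so did that of the wt+TNFα peak between 4930564D02Rik and Kcnd3. The selected peak with the highest wt fold enrichment in a gene body, in Iqsec3 (an exchange factor of inhibitory synapses), is not shown. Its richest window held 19 CpGs and lay in an 1109-bp exon.

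Far from gene starts, H3K27me3 was sparse in both conditions and covered more sequence in wt+TNFα organoids. Autosomal bases at least 50000 bp from a start came to 526.8 Mb, 22.2% of the autosomal sequence between the outermost peaks of each chromosome. Of these bases 1.08% lay under a peak in wt and 3.43% in wt+TNFα organoids. Of the bases nearer to a start, 5.18% and 11.3% did. Coverage fell with each step in distance. Between 50000 and 100000 bp it was 1.58% in wt and 4.76% in wt+TNFα organoids, between 100000 and 200000 bp 0.475% and 1.95%, and between 200000 and 500000 bp 0.117% and 0.513%. No peak reached the 1.45 Mb that lie farther out.

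**Figure D1:**
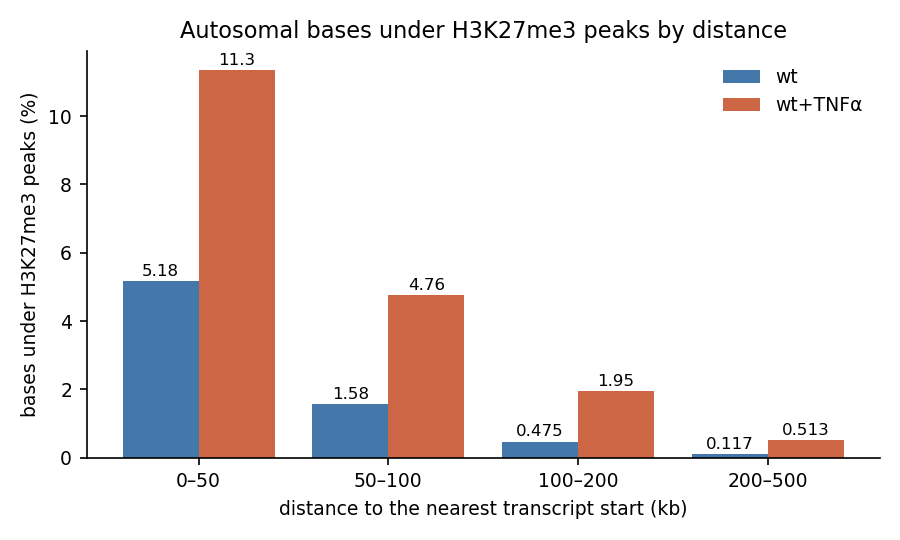
Percent of autosomal bases under H3K27me3 peaks (y axis, from 0) by distance to the nearest transcript start (x axis) in wt (blue) and wt+TNFα (red) organoids, 1 library each and no error bars. The wt bars go down from 5.18% to 0.117% and the wt+TNFα bars from 11.3% to 0.513%.

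The ratio of covered bases between wt+TNFα and wt was 3.17 far from starts and 2.19 nearer to them. By the far peaks alone, wt organoids had 4.97 Mb covered and wt+TNFα organoids 14.8 Mb, a ratio of 2.98, and the ratio of their numbers was 2.19. On every one of the 19 autosomes the wt+TNFα far peaks covered more, with ratios from 2.27 on chromosome 13 to 5.76 on chromosome 16. This direction turned when the wt+TNFα list was reduced to its strongest peaks until both lists covered the same autosomal length. Then 298 wt+TNFα far peaks were left, and the ratio of covered length was 0.527.

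Far peaks were narrower than near peaks, which the rule in part fixes, since a wide peak reaches within 50000 bp of a start more readily. In wt their median width was 1407 bp (range 366 to 38796), against 1826 bp for near peaks, and in wt+TNFα organoids 1631 bp (360 to 50295), against 2311 bp. Widths of at least 10000 bp were reached by 39 wt far peaks (1.67%) and 251 wt+TNFα far peaks (4.91%), while 6.20% and 11.8% of near peaks did. The fold enrichment is the ChIP signal over the local background from the input, and its median over far peaks was 2.05 in wt and 1.85 in wt+TNFα organoids, with 2.11 and 1.91 for near peaks. A −log10 q of at least 2, where q is the adjusted p-value of the peak caller in that library, was held by 83 wt far peaks (3.56%). That compares with 12.8% of all autosomal wt peaks. With TNFα, 501 far peaks (9.81%) held it, against 21.6% of all autosomal peaks. Fold enrichment and q did not match between the lists. In 1 stretch of chromosome 6 between Npvf and Nfe2l3, the lowest fold enrichment of a far peak was 1.95 in wt and 1.71 in wt+TNFα organoids. The far peak farthest from a start had 1.94 with a −log10 q of 0.405 in wt, and 1.97 with 1.51 in wt+TNFα organoids. The medians of the 2 conditions are thus not on the same scale.

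**Figure D2:**
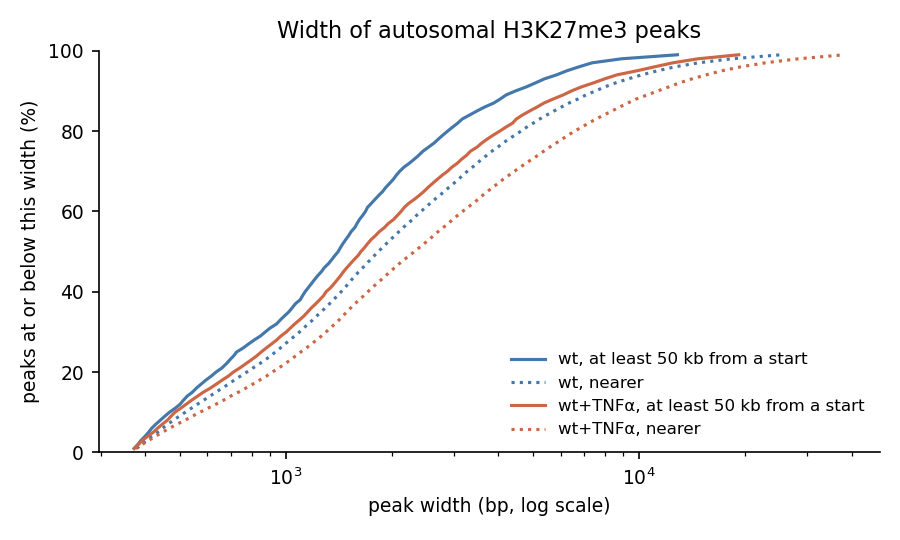
Percent of peaks at or below a given width (y axis) against peak width in bp (x axis, log scale), for far peaks (solid lines) and near peaks (dotted lines) in wt (blue) and wt+TNFα (red) organoids. Median widths are 1407 and 1631 bp for far peaks and 1826 and 2311 bp for near peaks.

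The 50000-bp limit marked no step in fold enrichment or in wt width. In wt+TNFα organoids, peaks just outside it were wider at the median than those just inside. The 385 wt far peaks within 5000 bp outside the limit were 1470 bp wide at the median, with a fold enrichment of 2.06, and near peaks within 5000 bp inside it 1484 bp, with 2.07. For wt+TNFα organoids the widths were 1929 bp for 781 far peaks and 1721 bp inside the limit, and both fold enrichments were 1.87.

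The widest wt far peak, chr9:48245993-48284788 (38796 bp, fold enrichment 2.57), lay in Nxpe4, a neurexophilin family gene. A pair of peaks in Skap1, an adaptor protein of T cells, came next at 34312 and 33683 bp. Then followed a peak of 28709 bp in Gli2, a transcription factor of Hedgehog signalling, and a peak of 27976 bp in the antisense gene Gm47071 near Pitx1, a homeobox gene of hindlimb development. Each of these was covered to at least 90.5% by wt+TNFα peaks. With TNFα the widest was chr12:78063452-78113746 (50295 bp), outside genes between Fut8 and Gm6657, of which 16.7% was under wt peaks. It was followed by 48568 bp between Tle3 and Rplp1, 48026 bp between Nkx1-1 and Fam53a, 41568 bp between Syf2 and Runx3, and 36021 bp in Dscaml1, a neuronal adhesion gene. Runx3 and Tle3 encode a transcription factor and a corepressor. The Dscaml1 peak was under wt peaks over 8.40% of its length.

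By fold enrichment, the desert between Npvf, a neuropeptide precursor, and Nfe2l3, a transcription factor, led both lists. The wt peak there, chr6:51179357-51196370, had a fold enrichment of 3.97, and the wt+TNFα peak, chr6:51179158-51200729, 4.22. They were 17014 and 21572 bp wide and 236300 and 231941 bp from the nearest protein-coding start. The other 4 leading wt far peaks were on chromosome 18 between Nol4 and Dtna (3.74), between Brd7 and Nkd1 (3.55), in Iqsec3 (3.46) and between Gm9376 and Abcc4 (3.37). All 4 lay wholly under wt+TNFα peaks. Nkd1 is an inhibitor of Wnt signalling and Abcc4 an efflux transporter. After it, the next 4 of wt+TNFα organoids were in Rims1 (4.16), between Gm9376 and Abcc4 (4.15), in Zbtb16 (3.56), a zinc-finger transcription factor, and between Brd7 and Nkd1 (3.48). Of the leading sites, 3 are thus held by both lists.

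In the lists as deposited, most wt far peaks were met by a wt+TNFα peak, and most wt+TNFα far peaks had no wt counterpart. Of the 2332 wt far peaks, 1746 (74.9%) were overlapped by a wt+TNFα peak by at least 1 bp, against 85.1% of all autosomal wt peaks. Conversely, 1232 of the 5108 wt+TNFα far peaks (24.1%) were overlapped by a wt peak, against 38.0% of all autosomal wt+TNFα peaks. Both shares turned when the wt+TNFα list alone was reduced to its strongest peaks, down to the autosomal length of the wt list. Then 20.3% of wt far peaks and 77.9% of wt+TNFα far peaks were overlapped. With both lists limited to a −log10 q of at least 2, the shares were 94.0% and 13.0%. Of 1746 shared wt far peaks, 255 were met only by a wt+TNFα peak that reached nearer to a start. Joined over both lists, the far peaks formed 5914 regions, of which 1452 held peaks of both conditions, 586 of wt alone and 3876 of wt+TNFα alone.

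Where both conditions had a peak, the wt+TNFα peak was the wider in 1542 of 1746 pairs (88.3%), with medians of 6799 bp against 1600 bp and fold enrichments of 2.03 against 2.08. The pairing favours wide partners, since a wide peak is met more often. The same wt+TNFα peak can stand in several pairs, and the partners include near peaks. The wt far peaks without a wt+TNFα peak were narrow and weak. Their median width was 930.5 bp, 0 of 586 had a −log10 q of at least 2, and all 83 wt far peaks that reached it were overlapped by a wt+TNFα peak. Among the 3876 wt+TNFα far peaks without a wt peak, 156 reached it and 28 were at least 10000 bp wide. Their highest fold enrichment was 2.53, against 4.22 for those overlapped by a wt peak.

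Sharing rose with the strength of the peak in both conditions. When each autosomal list was divided into 4 equal parts by −log10 q, far peaks in the weakest part of the wt list were overlapped in 62.9% and those in the strongest in 95.0%. Near peaks of the same parts were overlapped in 73.7% and 95.6%. With TNFα, far peaks went from 7.67% to 67.0%, and near peaks from 9.79% to 81.4%. The far share was thus the lower of the pair at each level of strength, and in the strongest part of the wt list the shares lay within 1 percentage point.

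**Figure D3:**
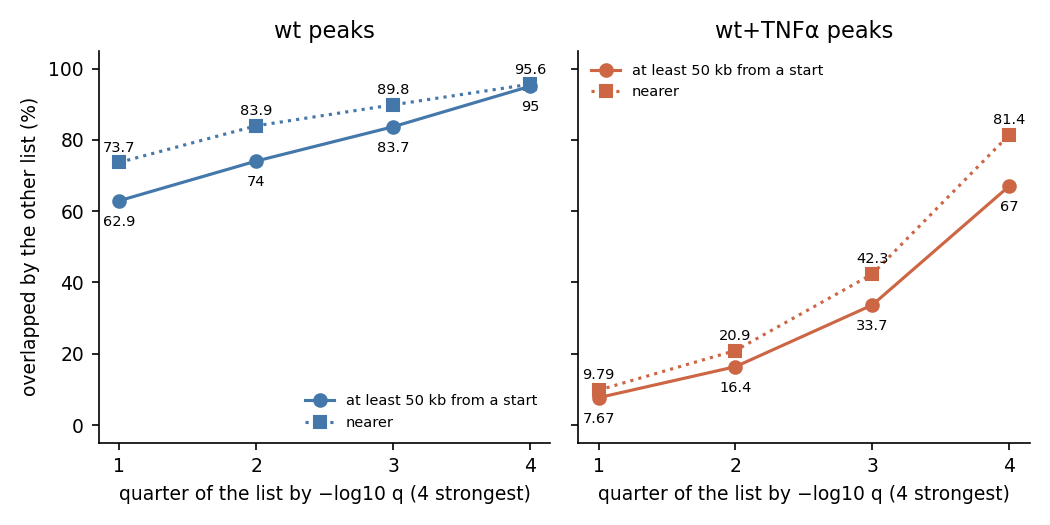
Percent of peaks overlapped by the other condition's list (y axis) in 4 equal parts of the autosomal list ranked by −log10 q (x axis, 4 is the strongest), for far peaks (circles, solid) and near peaks (squares, dotted) in wt (left) and wt+TNFα (right) organoids. The wt far peaks climb from 62.9% to 95.0% and the wt+TNFα far peaks from 7.67% to 67.0%.

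The widest wt far peaks with no wt+TNFα peak lay near Adamts15, an extracellular metalloprotease (11891 bp, fold enrichment 2.12), in Hs3st4, a heparan sulfate sulfotransferase (6150 bp), between Cd44 and Pdhx (5860 bp), in the adenylate kinase gene Ak5 (4878 bp), and between 3110018I06Rik and Bcl11b (4607 bp). Cd44 encodes a cell-surface receptor for hyaluronan, and Bcl11b a zinc-finger transcription factor. The highest −log10 q among these 5 was 0.974. The widest wt+TNFα far peaks with no wt peak were larger. They were chr3:105134021-105163518 (29498 bp, fold enrichment 2.13) between 4930564D02Rik and the potassium channel gene Kcnd3, 20260 bp in the lipid phosphatase gene Plpp4, and 19683 bp between Mroh5 and the adhesion receptor gene Adgrb1. A peak of 18877 bp in Grik4, a kainate receptor subunit, and 1 of 14932 bp in Hpse2, the heparanase 2 gene, completed the set.

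Fewer far peaks lay in gene bodies than outside genes, although gene bodies held somewhat more of their bases than of the far sequence as a whole. This order turned when distances were taken to 1 start per gene, with 52.3% of wt and 54.1% of wt+TNFα far peaks in a gene body. At least 1 bp of a gene body was met by 817 wt far peaks (35.0%) and 1995 wt+TNFα far peaks (39.1%), against 57.4% and 55.2% of all autosomal peaks. Of the bases at least 50000 bp from a start, 30.0% belong to a gene body, and of far peak bases 34.7% in wt and 37.9% in wt+TNFα organoids did. Between 50000 and 100000 bp these shares were 33.3%, 34.1% and 37.0%, and between 100000 and 200000 bp 26.8%, 37.4% and 40.9%. Protein-coding genes hosted 722 wt and 1776 wt+TNFα far peaks, lincRNA genes 54 and 121, and antisense genes 27 and 60. The remaining 1515 wt and 3113 wt+TNFα far peaks touched no gene. Exons were met by 106 wt far peaks (4.55%) and 259 wt+TNFα far peaks (5.07%), against 31.7% and 28.9% of all autosomal peaks. The distance rule itself leaves few exons, which make up 0.525% of the far bases and 6.41% of the nearer ones. A gene end within 5000 bp was found for 40 (1.72%) and 102 (2.0%), against 27.8% and 27.4%. Far peaks inside and outside genes were alike in width, with medians of 1408 and 1403 bp in wt and 1660 and 1623 bp in wt+TNFα organoids.

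Within long genes, far peaks went with the state of the gene's own promoter. The 1293 autosomal protein-coding genes with at least 1000 bases of body beyond 50000 bp from any start were considered, and 237 (18.3%) hosted a far peak in wt and 368 (28.5%) in wt+TNFα organoids, 204 of them in both. With an H3K27me3 peak within 1000 bp of a start of the gene, 176 of 559 genes (31.5%) hosted a wt far peak, and without it 61 of 734 (8.31%). The wt+TNFα counts were 268 of 619 (43.3%) and 100 of 674 (14.8%). With an H3K4me3 peak there, 59 of 516 genes (11.4%) hosted a wt far peak and without it 178 of 777 (22.9%), and in wt+TNFα organoids 90 of 529 (17.0%) and 278 of 764 (36.4%). Host genes were also longer, with a median of 277373 bp in wt against 215716 bp for the others, and the part of length in these shares was not tested.

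The wt host gene with the most bases under far peaks was Skap1, with 7 peaks over 86898 bp and fold enrichments from 1.98 to 2.78. It lies beside the Hoxb cluster of homeobox genes. In wt+TNFα organoids a peak of 307702 bp, chr11:96348949-96656650 (fold enrichment 2.96), covered the same 7 sites, and because it reached a start no far peak was counted there. Gli2 behaved alike. Its 3 wt far peaks (32086 bp) lay under a wt+TNFα peak of 129862 bp, chr1:118827852-118957713. Nxpe4 had 6 far peaks in either condition, over 47292 bp in wt and 53199 bp in wt+TNFα organoids. Ror2, a receptor for Wnt5a, had 12 in either condition, over 39769 and 77475 bp. Pebp4 had 12 over 30704 bp in wt and 6 over 69758 bp in wt+TNFα organoids, so that fewer and wider peaks covered more of the gene. The cadherin gene Cdh4 went from 26488 to 59231 bp and Acoxl, an acyl-CoA oxidase relative, from 25975 to 65033 bp. Gm20388, an annotated record of 4434882 bp that spans many other genes, held 24 and 32 far peaks and is not a host gene in the same sense.

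The leading host genes with TNFα were Hpse2 and Galnt18. Hpse2 went from 12 far peaks over 29221 bp in wt to 23 over 151114 bp, which was 52.4% of its far bases. Galnt18, a member of the family that starts mucin-type O-glycans, went from 19 far peaks over 34581 bp to 35 over 149039 bp, or 57.7% of its far bases. Grik4 went from 16977 to 117003 bp and Asic2, an acid-sensing ion channel, from 13527 to 94383 bp. The transcription regulators Camta1 and Zfhx3 went from 8038 to 113789 bp and from 9388 to 77316 bp. The unconventional myosins Myo3b and Myo16 went from 13682 to 93819 bp and from 9917 to 89217 bp. All 8 genes had a wt far peak already. Camta1 carried H3K4me3 at its promoter in both conditions, whereas Hpse2, Galnt18, Grik4, Asic2, Myo16 and Zfhx3 carried H3K27me3 there and no H3K4me3. Myo3b carried neither mark at its promoter in either condition.

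The nearest annotated start belonged to a protein-coding gene for 39.4% of wt and 39.9% of wt+TNFα far peaks, and otherwise to noncoding genes and pseudogenes. When protein-coding starts alone were considered, 816 genes in wt and 1236 in wt+TNFα organoids were the nearest, at a median distance of 100970 and 109544 bp. The nearest gene had an H3K27me3 promoter for 53.3% of wt far peaks and 58.6% of wt+TNFα far peaks. Of all 1000-bp tiles far from a start, 41.5% and 47.7% had such a neighbour. It had neither mark at its promoter for 9.05% of wt and 8.61% of wt+TNFα far peaks, against 29.4% and 23.8% of the tiles. Far peaks were therefore less often beside a gene bare of both marks than the tiles were, but the tiles were not matched for distance. Between 50000 and 100000 bp from a start lay 305 of the 526.8 Mb of far sequence, but 79.8% of wt and 74.8% of wt+TNFα far peaks. The part of distance in these shares was not tested. An H3K4me3 promoter was the neighbour of 54.4% and 50.3% of far peaks, against 39.1% and 40.5% of tiles. Peaks in gene bodies and in deserts differed here. In wt the nearest promoter carried H3K27me3 for 72.7% of far peaks in gene bodies and 42.9% of those outside genes, and H3K4me3 for 42.7% and 60.7%.

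The genes nearest to most wt far peaks were Rragc, a GTPase of nutrient signalling, and Galnt18, with 22 each, followed by Adgrb1 (17), Emp1 (16), an epithelial membrane protein, and Plcl1 (15). None of the 22 peaks nearest to Rragc lay in its body, whereas 19 of those nearest to Galnt18 did. The list went on with Mylk4 and the Ras-like GTPase gene Diras2 (14 each), Nfe2l3 (13), and A230072I06Rik and Mtx2 (12 each). Mtx2, a mitochondrial import gene, adjoins the Hoxd cluster. Under TNFα, Galnt18 led with 40 far peaks, then Camta1 (35), Myo16 and Kirrel3 (33 each), Adgrb1 (31), Fstl4 (30), Zfhx3 and Diras2 (29 each), and Kcnma1 and 5530401A14Rik (25 each). Kirrel3 is an adhesion protein and Kcnma1 a calcium-activated potassium channel. The single wt far peak nearest to 5530401A14Rik covered 545 bp, against 46157 bp in wt+TNFα organoids.

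Far sequence nearest to a start of a developmental transcription factor carried more of the mark than the far sequence over all protein-coding genes. Families such as Sox, Fox, Pax, Lhx, Irx and Tbx were the nearest neighbour of 3.27% of far tiles but of 156 wt far peaks (6.69%) at 45 genes and 281 wt+TNFα far peaks (5.50%) at 51 genes. Of their far bases 2.78% lay under a peak in wt and 6.48% in wt+TNFα organoids, against 1.07% and 3.40% over all protein-coding genes. Lhx1, a LIM homeobox gene, had 10 wt far peaks over 47289 bp and 4 wt+TNFα far peaks over 71216 bp. Zfhx3 went from 6 far peaks over 9388 bp to 29 over 90924 bp, and Sox6 from 6 over 9966 bp to 20 over 52165 bp. Foxa2, a forkhead factor of endoderm, had 9 over 15001 bp in wt and 8 over 29848 bp in wt+TNFα organoids. Sox9, a factor of intestinal crypt cells, had 8 and 4, over 10603 and 3775 bp.

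Neuronal adhesion and guidance genes showed the opposite pattern. They were the nearest neighbours of 11.6% of far tiles, but of 3.47% of wt and 4.48% of wt+TNFα far peaks, and 0.318% and 1.17% of their far bases were covered. Cadherins and protocadherins outside the clusters had 1.33% and 1.45% of far peaks for 5.25% of tiles. Ion channel and neurotransmitter receptor genes had 2.44% and 3.95% for 4.57% of tiles. Zinc finger Zfp genes had 0.643% and 0.548% for 0.740% of tiles. The far sequence next to colonic epithelium genes and olfactory receptors was scant, 0.0424% and 0.113% of tiles. It held 1 wt and 2 wt+TNFα far peaks for the former, and 0 and 3 for the latter.

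**Figure D4:**
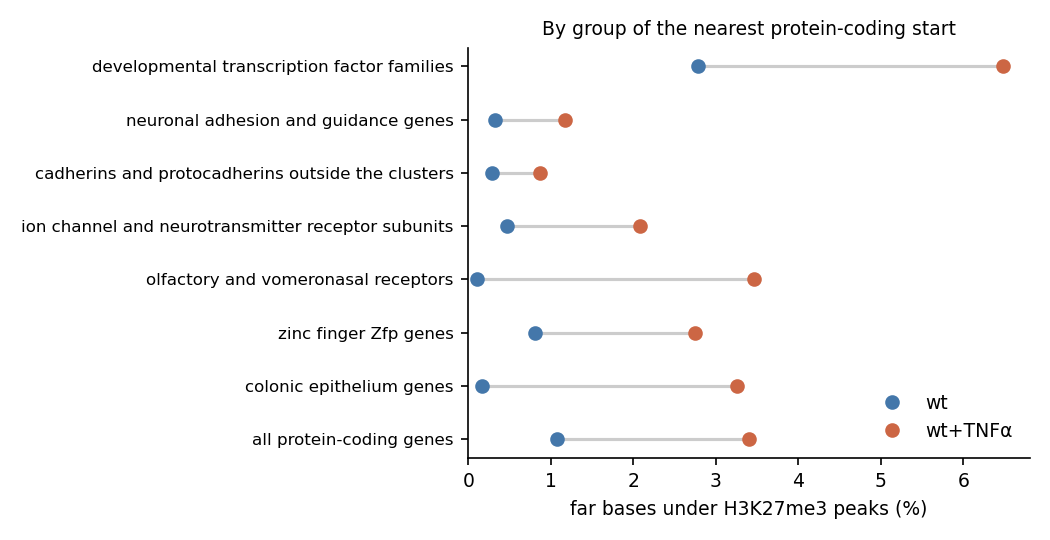
Percent of far bases under H3K27me3 peaks (x axis, from 0) by the group of the nearest protein-coding start (y axis) in wt (blue) and wt+TNFα (red) organoids, 1 library each. Developmental transcription factor families stand at 2.78% and 6.48%, neuronal adhesion and guidance genes at 0.318% and 1.17%, and all protein-coding genes at 1.07% and 3.40%. The groups are not matched for distance to a start.

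Far peaks lay in sequence richer in G and C than the far sequence of the autosomes as a whole. The tiles that stand for this sequence were not matched to the peaks for distance to a start. The central 1000 bp had a median GC content of 45.3% in wt and 44.1% in wt+TNFα far peaks, against 39.3% in far tiles. Repeat-masked bases took up 22.1% and 24.1% of these stretches on average, against 36.3% of the tiles. A CpG-rich window, 200 bp with at least 50% GC and an observed-to-expected CpG ratio of at least 0.6, was found in this stretch of 207 wt (8.88%) and 337 wt+TNFα far peaks (6.60%), against 3.31% of far tiles. Near peaks held it in 16.9% and 11.3%, and tiles within 50000 bp of a start in 7.59%. Among far peaks with a −log10 q of at least 2 it was found in 37.3% in wt and 13.0% in wt+TNFα organoids.

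Far peaks with many CpGs had the higher median fold enrichment and were more often shared, although the peak with the highest fold enrichment in both lists was CpG-poor. The first 5 sequences printed above were chosen for high fold enrichment and sharing and are no evidence of this. In wt, the 18 far peaks whose best 200 bp held 20 or more CpGs had a median fold enrichment of 2.93 and were all overlapped by a wt+TNFα peak. The 2110 with fewer than 10 CpGs had a median of 2.05, and 72.8% were overlapped. Of wt+TNFα far peaks, the 19 with 20 or more CpGs had a median of 2.62 and 18 were overlapped by a wt peak, against 1.85 and 20.8% for the 4684 with fewer than 10. Of the 18 wt peaks, 3 lay in a gene body and 2 met an exon. These peaks were also wider, with a median of 5249 bp against 1306 bp, and a wider peak offers more windows to choose from. CpG-poor far peaks were the bulk of both lists, 90.5% in wt and 91.7% in wt+TNFα organoids, and they include the wt+TNFα peak between 4930564D02Rik and Kcnd3 whose sequence is shown above.

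**Figure D5:**
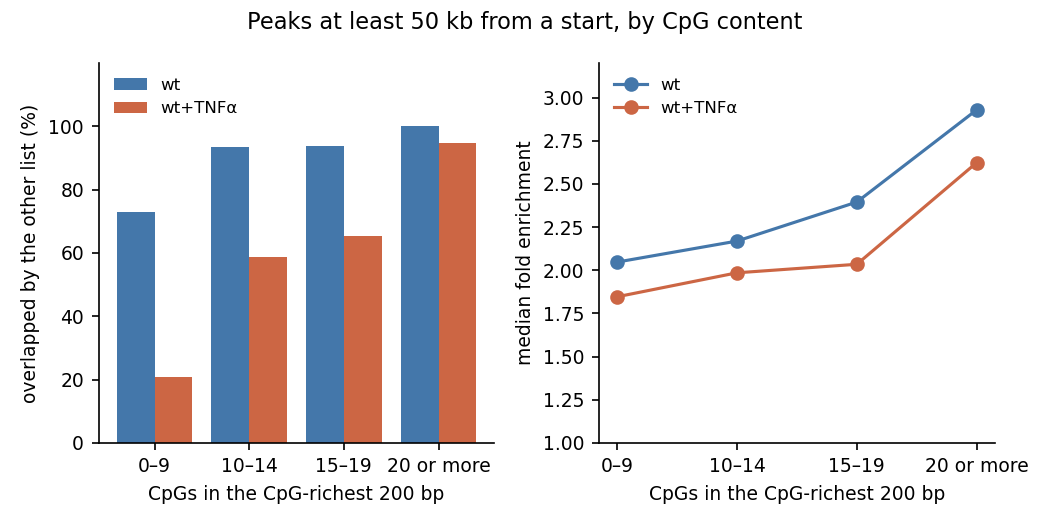
Far peaks grouped by the CpG count of their CpG-richest 200 bp (x axes), showing the percent overlapped by the other condition's list (left, bars from 0) and the median fold enrichment (right, axis from 1) in wt (blue) and wt+TNFα (red) organoids. The group with 20 or more CpGs, 18 wt and 19 wt+TNFα peaks, has medians of 2.93 and 2.62, and the group below 10 has 2.05 and 1.85.

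Few far peaks carried H3K4me3, the mark of active promoters, which the distance rule itself makes rare because H3K4me3 sits at starts. It overlapped 2 wt far peaks (0.0858%) and 3 wt+TNFα far peaks (0.0587%), against 2.67% and 1.84% of all autosomal H3K27me3 peaks. At chr9:67630468-67633236, 70765 bp from Tln2, a talin gene of cell adhesion, both marks were present in both conditions. The H3K4me3 fold enrichment there was 22.4 in wt and 34.5 in wt+TNFα organoids, and the H3K27me3 fold enrichment 2.78 and 2.16. The CpG-rich peak between Brd7 and Nkd1 carried a weak H3K4me3 peak of 337 bp (4.97) in wt alone. In wt+TNFα organoids a far peak 73748 bp from Hmga2, a chromatin protein gene, carried H3K4me3 (6.55), while wt had H3K27me3 but no H3K4me3 there. The last site, 51172581 to 51174636 on chromosome 6, lies within the longest wt+TNFα run of far peaks between Npvf and Nfe2l3. H3K4me3 stood there at 7.38 in wt and 13.3 in wt+TNFα organoids, and an H3K27me3 peak met it in wt+TNFα organoids.

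Far peaks lay farther from other peaks than near peaks did. The median gap to the next H3K27me3 peak of the same list was 5221 bp in wt and 3197 bp in wt+TNFα organoids, and 247 (10.6%) and 237 (4.64%) had no other peak within 50000 bp. For near peaks the median gaps were 3816 and 2733 bp, and 7.15% and 3.65% had no other peak within that distance. Joined across gaps of up to 10000 bp, far peaks formed 1383 runs in wt and 2339 in wt+TNFα organoids, with 60.0% and 74.8% of far peaks in runs of at least 2. Runs over 50000 bp numbered 20 and 96. The longest wt runs were in Skap1 (103903 bp), in Ror2 (101250 bp), between Emp1 and Grin2b (98400 bp), beside Lhx1 (79003 bp) and between Tle3 and Rplp1 (76613 bp). Of these, in the same order, 103903, 76490, 42481, 67779 and 61517 bp lay under wt+TNFα peaks.

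The longest wt+TNFα run, 276880 bp with 40 peaks, was at Galnt18, and 35197 bp of it were under wt peaks. It was followed by Hpse2 (208719 bp), the desert between Npvf and Nfe2l3 (189471 bp), a desert between Runx1 and Setd4 (150848 bp) and the region between Spata18 and Usp46 (135908 bp). Within the Npvf to Nfe2l3 run, 14 wt far peaks covered 36329 bp and 16 wt+TNFα far peaks 132173 bp, with median fold enrichments of 2.05 and 2.03. Of the 150848 bp between Runx1 and Setd4, which lie 313442 and 293570 bp away, 4793 bp were under wt peaks. The Skap1 run is missing from the wt+TNFα runs because its peak reached a start.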

How the data were processed

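H3K27me3 and H3K4me3 ChIP-seq of wt and wt+TNFα organoids were analysed from the 4 deposited peak lists. Neither reads nor inputs were used here. The authors used fastp for trimming, bwa-mem (BWA 2.2 per the labels) for alignment to GRCm38/mm10 and SAMtools 1.11 to drop duplicates. Blacklisted regions were taken out before MACS2 called peaks, with each condition's input as control. The labels and the methods give MACS2 2.1.0, and the reporting summary another version. H3K27me3 peaks were called as broad peaks in each library, and nothing was pooled. The reporting summary gives a q-value threshold for them that equals a −log10 q of 2. In the deposited lists, 83 of 2332 wt and 501 of 5108 wt+TNFα far peaks reached this value. The deposited fold enrichment is a ratio of ChIP signal to local background, each deposited p-value or q-value is on a −log10 scale, and the deposited score, a rescaled p-value or q-value, was not used further. Fold enrichments were scaled per library and rank peaks within a list.

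Distances were taken from peak edges to 134417 autosomal transcript starts (GENCODE annotation of GRCm38, 55450 genes of all types). An overlap was at least 1 bp, a promoter reached 1000 bp to each side of a start, and a gene body ran from start to end of the gene record. Tiles of 1000 bp and sequences came from the RefSeq copy of GRCm38. Sequence outside the outermost H3K27me3 peaks was left out, including chromosome 1 before position 9295415. Python 3.11.15, numpy 2.4.6, pandas 2.3.3, scipy 1.17.1 and matplotlib 3.10.9 were used. On 300 simulated peaks, 100% of distances and overlaps were recovered.

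Members, gene lists and alternatives were chosen with earlier results of these data known. Peaks named were, per list, the 5 widest, the 5 with the highest fold enrichment and the 5 widest without a peak in the other list. Genes named were the 10 with most body bases under far peaks and the 10 nearest to most far peaks, and runs the 5 longest. Sequences came from the 3 shared far peaks with the highest wt fold enrichment in gene bodies and the 3 outside genes, with chromosome 18 left out. The genes of the transcription factor group and the peaks with H3K4me3 were named after their values were seen. With 1 library per condition and mark, no test was run and no p-value is given. The alternatives were other distances, sets of starts, limits on −log10 q, joining and overlap rules.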

Additional observations from a re-analysis of the deposited data

Results flagged for a closer look

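The X chromosome lay outside the comparisons, which used autosomes. There, 3079 H3K27me3 peaks of wt+TNFα organoids were at least 50000 bp from every start, against 28 in wt organoids, and they covered 11.5 Mb against 0.0513 Mb. Of all X-linked peaks, the wt list held 247 and the wt+TNFα list 11578. The difference is flagged as signal in data that the comparisons did not use, with 1 library per condition, and its cause was not tested.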

How the results depend on the processing

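The shares and counts below had no replicates, so a share counts as moved when it left the exact (Clopper-Pearson) 95% binomial interval of its reported value, which covers counting error only, and a count when it changed by over 1.5 times. The interval takes peaks as independent, although many far peaks lay in runs, so it may be too narrow. No paired analysis was possible because each condition has 1 library per mark. The counts of far peaks follow the rule. With a limit of 25000 bp there were 6253 in wt and 12372 in wt+TNFα organoids, at 100000 bp 471 and 1289, with protein-coding starts only 7642 and 15297, and with 1 start per gene 3555 in wt. With −log10 q of at least 2 there were 83 and 501, above the median −log10 q 826 and 1908, and at equal covered length 298 in wt+TNFα organoids. The overlapped share in wt was 78.2%, 65.4%, 78.4% and 78.0% under the limits of 25000 and 100000 bp, protein-coding starts and 1 start per gene, and in wt+TNFα organoids 26.5%, 18.9%, 28.3% and 25.6%. With both lists limited to −log10 q of at least 2, the shares were 94.0% and 13.0%, at equal length 20.3% and 77.9%, with overlap over at least 50% of the peak 65.0% and 9.16%, and with the other list extended by 5000 bp 87.3% and 39.2%. Equal length thus turned the order of both shares, since the wt+TNFα list then held 7641 peaks and the wt list was left whole. The gene-body share was 52.3% and 54.1% with 1 start per gene, so that most far peaks then lay in gene bodies. It was 27.7% and 35.3% at −log10 q of at least 2, and 31.0% and 34.8% with protein-coding bodies only. In wt+TNFα organoids it was 37.4% above the median −log10 q, 35.2% at equal length and 37.5% with peaks within 3000 bp joined. The other 19 of these values stayed within their limits, but 2 of them, the count and the gene-body share of wt far peaks at equal length, could not change because the wt list was left whole. The ratio of covered far length, wt+TNFα over wt, was above 1 in every alternative except equal length. Causes were not tested. Depth per peak is unknown from the lists.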

Other observations

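The peaks farthest from any start were chosen after their values were seen. In wt organoids the farthest lay in Npas3, a neuronal transcription factor gene, at 314874 bp from a start (1106 bp wide, fold enrichment 1.94), and the next 2 lay between St3gal1 and Zfat at 313176 and 307404 bp. With TNFα the 3 farthest lay together between Bmp2, a secreted growth factor, and Hao1, at 417793 to 435096 bp. None of these 3 was overlapped by a wt peak.

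Coverage of the far sequence differed between chromosomes. It ran from 0.247% on chromosome 16 to 2.19% on chromosome 9 in wt, and from 1.38% to 6.81% on the same 2 chromosomes in wt+TNFα organoids.

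The far peaks with the most CpGs in their best 200 bp included more sites than those shown. By nearest protein-coding start, the 10 richest in wt also held peaks at Kcnk1 (36 CpGs, fold enrichment 3.16), Smad2 (36 CpGs, 2.35), Dtna (34 CpGs, 3.74), Abcc4 (31 CpGs, 2.12), Efcab1 (30 CpGs, 2.21), Rragc (27 CpGs, 2.87) and the cadherin gene Cdh20 (26 CpGs, 2.49).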
